A study of Mus musculus with 4 samples.

Results

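The genes of the dystrophin glycoprotein complex were examined in skeletal muscle of mice lacking AMPKα2 and of wild-type mice. The 8 genes were Dmd, Utrn, Dag1, Sgca, Sgcb, Sgcd, Dtna and Lama2. The genes were chosen with earlier results of these data known. Their sites were then taken by symbol alone, whatever their position in the gene or their count in the table. The table holds only sites with at least 10 reads over the 4 libraries. All 8 symbols were found, and they held 352 of the 42207 start sites in the table and were 8 of its 9838 genes.

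Total RNA of gastrocnemius muscle from adult male C57BL/6 mice of about 8 weeks was sequenced from transcript 5′ ends (WTSS-seq). The AMPKα2 knockout group (KO) had 2 libraries from mice in which part of the catalytic domain of this kinase subunit was deleted, and the wild-type group (WT) had 2 libraries from mice without the deletion. Each library came from a separate mouse, and no muscle-restricted Cre was described, so the comparison is between whole knockout animals and wild-type animals. The gene Prkaa2 encodes AMPKα2, the catalytic part of a kinase that responds to low cellular energy. The comparison asks how its loss changes where and how much muscle genes are transcribed.

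The dystrophin glycoprotein complex links the actin cytoskeleton of the muscle fibre to the basement membrane around it. Dystrophin binds actin inside the fibre and holds β-dystroglycan at the membrane, α-dystroglycan binds laminin outside, and the sarcoglycans brace dystroglycan within the membrane. Loss of dystrophin, a sarcoglycan or laminin α2 leaves fibres fragile and causes muscular dystrophy. Several of these genes are very long, and Dmd is known to have internal promoters that produce shorter proteins besides the full-length muscle form.

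Library totals ran from 1300069 to 2900279 reads, with the KO pair deeper than the WT pair, and 19.4 to 24.1% of the reads of a library were mitochondrial. Replicates differed by more than sampling noise. Normalized counts are reads divided by DESeq2's size factors, and a log2 change is the log2 fold change of KO over WT with its standard error (SE). A gene or site is called past a Benjamini-Hochberg adjusted p of 0.1 in DESeq2's Wald test over all genes or all sites. The summed normalized count of 8 muscle fibre markers was 74369 and 83342 in KO against 66962 and 92585 in WT, so the labelled tissue was seen in all 4 libraries. Prkaa2 itself had normalized counts of 149 and 183 in KO against 153 and 186 in WT, so its total gave no check of the labels. Whether these reads lie outside the deleted part was not tested.

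None of the 8 genes was called by DESeq2 when its sites were summed, with a background of 125 of 4688 genes tested, or 2.67% (1.71% higher and 0.96% lower in KO). At an unadjusted p under 0.05 the count was 1, Dtna, and edgeR's quasi-likelihood test gave the same counts. The background of called genes in edgeR was 0.883%, and the share of all genes with such an unadjusted p was not counted. The KO and WT libraries did not overlap for Dmd and Dtna, both higher in KO, and overlapped for the other 6, where 41.4% of all genes tested did not overlap and 22% did so with KO higher. The median log2 change was 0.07 over the members and 0.01 over all genes tested. In tissue RNA, a smaller share of cells of a type and less RNA per cell cannot be told apart.

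**Figure D1:**
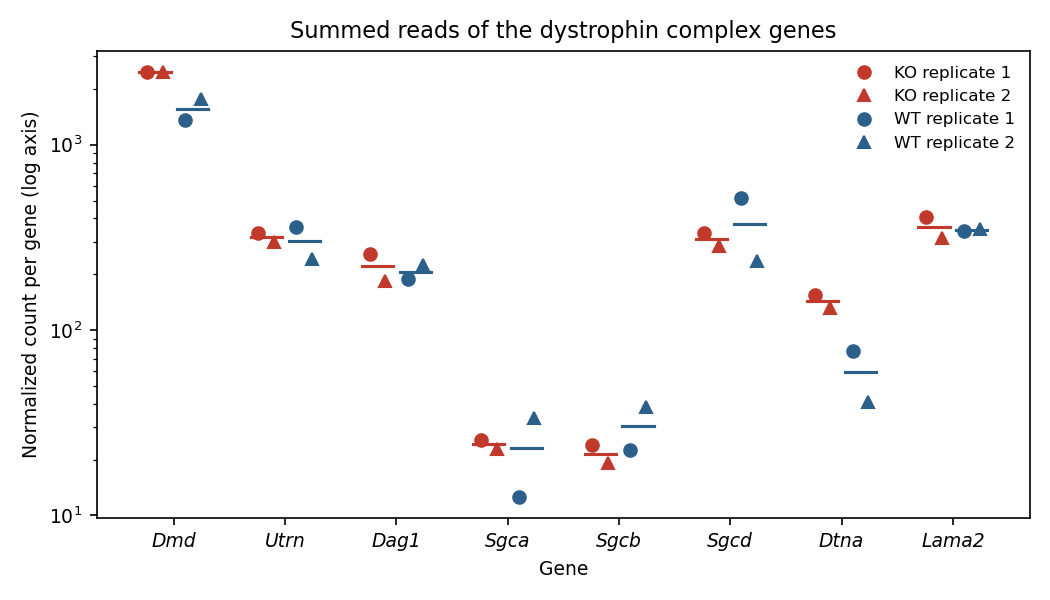
Normalized count of each of the 8 genes in each library on a log axis, with KO and WT as separate points and a bar at each group mean. The Dmd and Dtna points of KO lie above those of WT, and the points of the other 6 genes overlap.

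Dmd encodes dystrophin, the large rod-shaped protein that gives the complex its name. Its RefSeq gene span is chrX:82814664-85205050 on the plus strand, 2390.4 kb, and its sites held 60.8% of the 15210 reads of all 8 genes. The library counts were 4030 and 2826 reads in KO against 966 and 1426 reads in WT. After normalization these were 2462 and 2469 in KO (mean 2466 ± 5.56, SD, n = 2) against 1355 and 1776 in WT (mean 1565 ± 298, SD, n = 2). Both KO libraries were higher than both WT libraries, which lay further from each other than the KO libraries did. The log2 change was 0.66 (SE 0.40, 95% interval -0.13 to 1.44), which did not pass the test (DESeq2 adjusted p = 0.675, edgeR adjusted p = 0.672).

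RefSeq promoter windows for Dmd are shown because reads of full-length muscle dystrophin and of its internal product Dp71 would begin in different windows. That of Lama2, for a laminin chain, is shown because it was the only other member window with a CArG box. The windows run from 250 bases before to 50 bases after the annotated start. Motifs were searched on both strands, and capitals mark the TATA motif, searched as TATAAA, or the CArG box, the site of serum response factor. They also mark the GC box, which was searched as GGGCGG on either strand. The E box was searched as CANNTG and only counted.
Dmd muscle start, chrX:82948620-82948919, plus strand, GRCm38.p6: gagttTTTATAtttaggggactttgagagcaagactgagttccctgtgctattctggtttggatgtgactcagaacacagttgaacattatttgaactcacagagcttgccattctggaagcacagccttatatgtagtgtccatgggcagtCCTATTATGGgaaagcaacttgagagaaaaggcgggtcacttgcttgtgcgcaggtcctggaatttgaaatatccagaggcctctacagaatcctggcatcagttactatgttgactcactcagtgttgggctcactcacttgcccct
Dmd Dp71 start, chrX:85048045-85048344, plus strand, GRCm38.p6: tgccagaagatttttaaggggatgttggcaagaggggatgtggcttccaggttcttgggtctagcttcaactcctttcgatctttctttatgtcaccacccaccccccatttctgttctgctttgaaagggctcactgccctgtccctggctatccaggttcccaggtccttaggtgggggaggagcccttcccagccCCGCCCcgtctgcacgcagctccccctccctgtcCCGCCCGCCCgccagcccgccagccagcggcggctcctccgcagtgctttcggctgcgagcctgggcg
Lama2 start, chr10:27616893-27617192, minus strand, GRCm38.p6: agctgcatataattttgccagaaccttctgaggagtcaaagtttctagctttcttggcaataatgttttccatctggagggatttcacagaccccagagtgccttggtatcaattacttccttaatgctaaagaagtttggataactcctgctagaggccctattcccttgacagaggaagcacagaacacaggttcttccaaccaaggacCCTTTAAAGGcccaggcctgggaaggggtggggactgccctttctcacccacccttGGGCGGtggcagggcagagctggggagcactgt
The muscle window held 1 CArG box that begins 98 bases before the start, and 1.63% of 32851 promoters of the same length held at least 1. It also held 1 TATAAA match 245 bases before the start, found in 13.6% of promoters, and 3 E boxes, found in 72.3%. The Dp71 window held 3 GC boxes, at 52, 18 and 14 bases before the start, the latter pair sharing bases, and 35.7% of promoters held this motif. Its GC content was 62.7%, and that of the muscle window was 45.7%. A match is a description of the letters and not a bound site.

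A site at the muscle promoter was present and few Dmd reads began there. The site at chrX:82948996-82948997, 127 bases downstream of the muscle start and within an annotated exon, had 54 and 45 reads in KO against 0 and 12 in WT, or 1.20% of the gene's reads. Normalized counts were 35.4 and 38.8 in KO against 0 and 13.9 in WT, so the groups did not overlap. The log2 change was 2.40 (SE 1.34) and did not pass the test (DESeq2 adjusted p = 0.623). No site lay in the 134.21 kb between the annotated gene start and the muscle start, a stretch where the brain promoter is known to lie. The Dp71 start lies 2099.4 kb further down, and the nearest Dmd site was 5145 bases from it. Past that start, up to the gene end, 8 sites together had normalized counts of 48.6 and 25.9 in KO against 40.7 and 32.3 in WT, which overlapped. Starts of the other internal forms of dystrophin were not in the table used here.

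Most Dmd reads began inside introns. Of its 213 sites, 197 had the intronic class code, 15 were contained in an exon and 1 overlapped an exon otherwise, and 3 lay on the strand opposite to the gene. Intronic sites carried 96.6 and 95.9% of the Dmd reads in KO against 96.0 and 93.2% in WT. The sites were narrow, with 50.2% at most 5 bases wide against 30.3% of all sites in the table. They were also thinly covered, with a median of 16 reads over the 4 libraries for intronic sites and 15 for exonic ones. The largest site held 8.46% of the gene's reads, so the sum over Dmd did not rest on 1 site. Fitted with size factors from that kind of site in all genes, the log2 change of Dmd was 0.37 (SE 0.62) over exonic and 0.41 (SE 0.41) over intronic sites. Both were under the 0.66 found with size factors of whole genes. On this scale intronic sites had 2020 and 2357 in KO against 1257 and 2039 in WT, so the groups overlapped. Exonic sites had 100.22 and 100.17 against 56.4 and 98.3, which did not overlap. The separation of the Dmd libraries thus depended on the scaling.

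Dmd sites were densest near the muscle start, where the reads of both groups were concentrated as well. The stretch from the muscle start to the gene end was cut into 10 equal bins, and bins 1 and 2 held 109 sites, or 51.2% of them. Together these bins held 55.0 and 61.3% of Dmd reads in KO against 57.0 and 63.7% in WT, which overlapped. Bin 1, up to 225.62 kb, had 60 sites with summed normalized counts of 1048 and 1018 in KO against 577 and 529 in WT. Over the 10 bins, both KO libraries were above both WT libraries in 5, below both in 2 and overlapped them in 3. Without the 3 called sites described below, which lie in bins 4, 5 and 6, these counts were 6, 1 and 3. Bin 5, with 183 and 209 in KO against 235 and 215 in WT, then had 182 and 198 against 164 and 154, so its direction rested on 1 site. Bin 4 had 226 and 91.5 in KO against 35.3 and 32.3 in WT, a ratio of group means of 4.69, which was 2.71 without KO replicate 1. Bin 6, from 1128.1 to 1353.7 kb, had 325.5 and 299 against 52.9 and 102, a ratio of 4.04 that was 2.42 without its called site. Its values were then 206 and 74.2 in KO against 42.1 and 73.9 in WT, so KO replicate 2 barely passed WT replicate 2. Without KO replicate 1 as well, the ratio was 1.28. Bin 10, with 74 and 30 reads in KO against 36 and 45 in WT, had normalized counts of 48.6 and 25.9 against 48.9 and 52.0. KO replicate 1 nearly equalled WT replicate 1 there, and KO counts were not higher in every bin. The bins were scaled by the size factors of sites and were not tested.

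**Figure D2:**
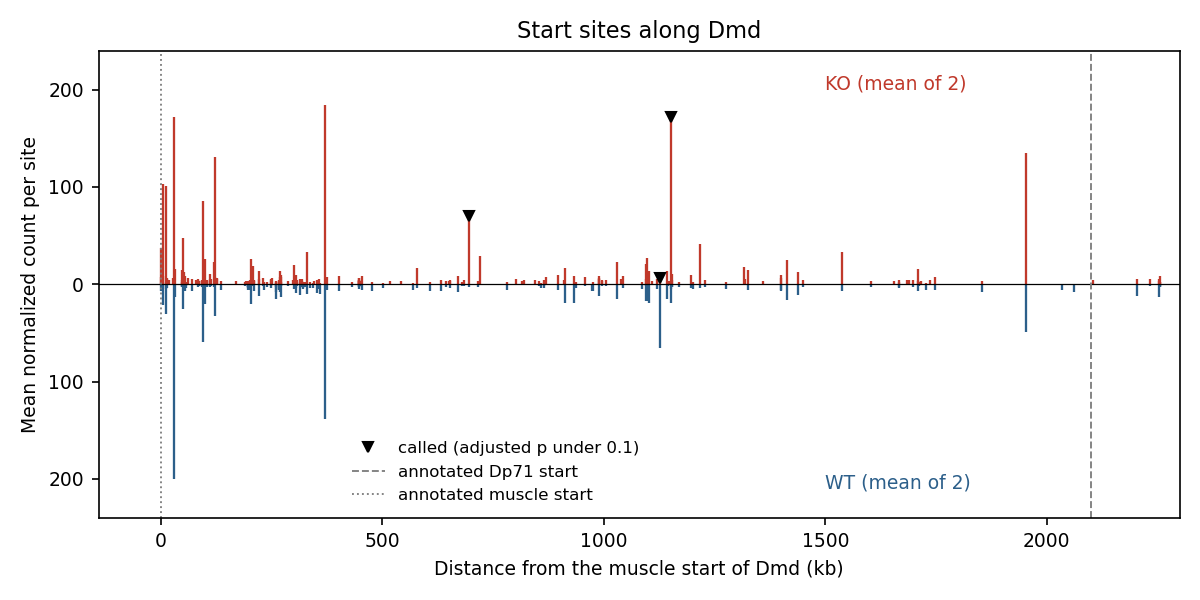
Normalized counts of the Dmd sites by distance in kb from the muscle start, with KO means drawn upward and WT means downward, a dotted line at the muscle start and a dashed line at the Dp71 start. Triangles mark the 3 sites past an adjusted p of 0.1, and the sites crowd toward the muscle start.

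Of the 352 sites of the complex, 76 were tested by DESeq2, since independent filtering removed the other 276 for their low mean over the 4 libraries. There were 4 calls, 2 higher and 2 lower in KO, which is 5.26% of those tested against 3.21% of all 11112 sites (2.33% higher and 0.882% lower). Of the called sites, 3 were in Dmd, 1 was in Sgcd, and all were intronic. The share higher in KO was 51 of 76, or 67.1%, against 53.5% of all tested sites. The median log2 change was 0.56 against 0.10. The excess lay mostly in Dmd, which held 41 of the 76 sites, 32 of them higher in KO. Numbers higher were 6 of 9 for Utrn, 7 of 12 for Lama2, 3 of 7 for Dag1 and 2 of 4 for Sgcd. Dtna had 1 of 1, and Sgca and Sgcb had 0 of 1 each. In edgeR none of 72 sites was called, where 0.712% of all sites were, and 11 had an unadjusted p under 0.05. DESeq2 gave 13 sites with such a p, 10 higher and 3 lower, counting 1 that its filter left without an adjusted p. Among tested sites, the DESeq2 share with such a p was 15.8% for the members and 9.63% for all sites. In edgeR the share over all sites was not counted. KO and WT libraries did not overlap at 27 higher and 11 lower sites of the 76, beside 23% and 17.4% of all tested sites. Of these, Dmd held 17 and 3. The table holds only sites with at least 10 reads over the 4 libraries, which admits sites of the deeper KO libraries more readily.

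The Dmd site with the smallest p rose in KO. It lies in an intron at chrX:84099676-84099679, 1150.8 kb downstream of the muscle start, with 182 and 260 reads in KO against 8 and 24 in WT. Normalized counts were 119 and 224 in KO (172 ± 74.2, SD, n = 2) against 10.9 and 27.7 in WT (19.3 ± 11.9). The lower KO library was still several times the higher WT library, and the log2 change was 3.15 (SE 0.80, DESeq2 adjusted p = 0.00923). It was not past the threshold in edgeR (adjusted p = 0.134). The call was also lost in DESeq2 without KO replicate 1 (adjusted p = 0.154), KO replicate 2 (1.00) or WT replicate 1 (0.114).

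A nearby Dmd site moved the other way. At chrX:84075972-84075976, also intronic and 1127.1 kb from the muscle start, it had 2 and 13 reads in KO against 52 and 53 in WT, although the KO libraries were deeper. Normalized counts were 1.31 and 11.2 in KO (6.27 ± 7.0) against 70.6 and 61.2 in WT (65.9 ± 6.61), and the groups were far apart. The log2 change was -3.43 (SE 1.08, DESeq2 adjusted p = 0.0649, edgeR adjusted p = 0.194). Relative to the other Dmd sites it also fell, by diffSpliceDGE's test of single sites (adjusted p = 0.0381), the only such call among 70 member sites tested, where 0.72% of all sites were called and 0.298% as lower.

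The remaining called Dmd site rested on 1 library. At chrX:83644031-83644032, 695.16 kb from the muscle start, it had 208 and 5 reads in KO against 0 and 5 in WT, or normalized counts of 136 and 4.32 against 0 and 5.78. KO replicate 2 lay between the WT libraries. DESeq2 gave a log2 change of 4.57 (SE 1.47, adjusted p = 0.0741), which was 0.62 without KO replicate 1, and the site was not tested in edgeR. Just outside the threshold was chrX:83669274-83669275, with 49 and 31 reads in KO against 1 and 0 in WT (log2 change 5.54, SE 1.90, DESeq2 adjusted p = 0.104).

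**Figure D3:**
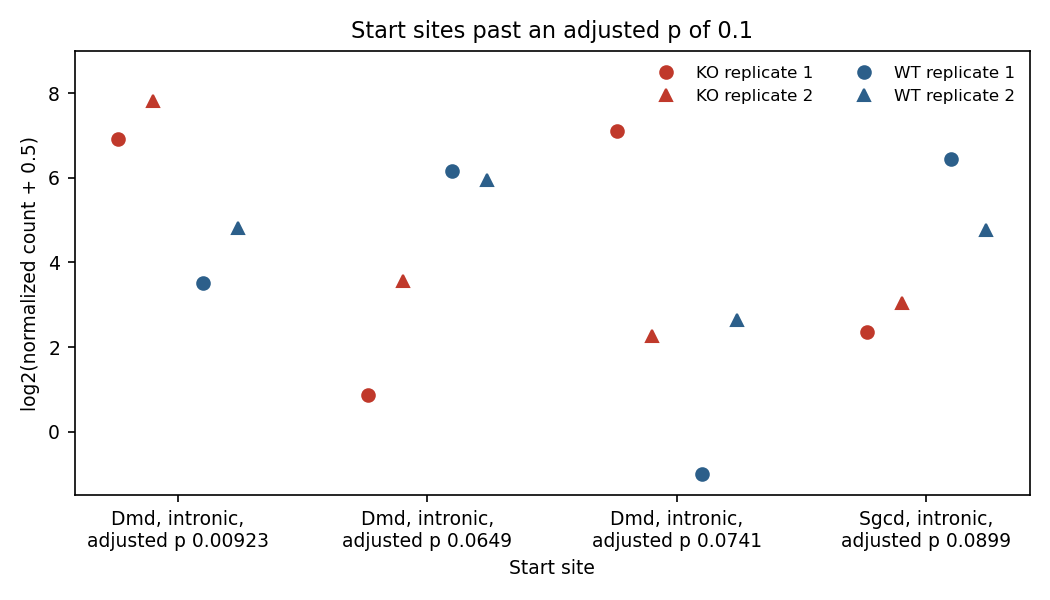
Normalized counts, as log2 of the count plus 0.5, of the 4 called sites in each library, ordered by adjusted p, with KO and WT as separate points. At the third Dmd site 1 KO library stands far above the other 3 libraries, while at the other sites the groups are apart.

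Of the 12 Dmd sites with an unadjusted p under 0.05, 9 were not called, 8 of them with higher counts in KO. Besides the site just outside the threshold, those with the smallest p were as follows. The site at chrX:83071821-83071841 had 235 and 125 reads in KO against 16 and 37 in WT (log2 change 2.02, DESeq2 adjusted p = 0.184). That at chrX:82954760-82954764 had 77 and 180 against 22 and 11 reads (adjusted p = 0.216 in DESeq2). The sites at chrX:84165615-84165616 and chrX:83069403-83069406 had 113 and 9 reads against 2 and 4, and 36 and 25 against 2 and 2. The site with lower counts in KO, at chrX:85010541-85010567, was removed by DESeq2's filter. It had no reads in either KO library and 6 and 7 in WT, at least 3.56-fold lower in KO when each KO library is set at a floor of 3 reads. The 2 sites of the gene with most reads were not among these. The site at chrX:82979759-82979767 had 262, 200, 155 and 165 reads in KO replicates 1 and 2 and WT replicates 1 and 2, and that at chrX:83319212-83319235 had 242, 244, 9 and 230. At the latter the WT libraries differed more from each other than from KO.

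Distribution of reads over Dmd sites was not called as changed. Over 41 sites, diffSpliceDGE gave an unadjusted p of 0.00523 and an adjusted p of 0.180 by the Simes method, and 0.115 by its gene-level F test. None of the 5 members that could be tested was called by either method, where 1.79% and 3.39% of all 2184 genes were. Dmd and Sgcd had an unadjusted p under 0.05, and the share of all genes with such a p was not counted. Without the 3 called sites, and on the size factors of sites, the summed Dmd counts were still 2387 and 2199 in KO against 1229 and 1552 in WT, a ratio of 1.65. The libraries held reads at 194 and 172 Dmd sites in KO against 138 and 152 in WT. At the depth of the smallest library the expected numbers were 182 and 161 against 138 and 148. Sites with reads only in KO numbered 33, none with over 23 reads and none tested, and 2 had reads only in WT. The KO libraries were deeper, and the share of such sites over the whole table was not counted. The 3 genes whose centred log2 levels lay nearest to those of Dmd over the 4 libraries were Cdv3, Insr and H19, at root-mean-square differences of 0.0447, 0.0494 and 0.0534 among 4687 other genes.

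Utrn encodes utrophin, the dystrophin relative that is held at the neuromuscular junction in adult muscle and also found in vessels. At chr10:12382187-12869888 on the minus strand, it had 31 sites, of which 23 were intronic. Normalized counts were 333 and 299.7 in KO (316 ± 23.5) against 362 and 240 in WT (301 ± 85.9), and the KO values lay within the WT range. The log2 change was 0.07 (SE 0.46, DESeq2 adjusted p = 0.992). Its largest site, the intronic chr10:12659019-12659037 with 30.2% of the gene's reads, had normalized counts of 102 and 99.2 in KO against 84.1 and 82.0 in WT. The nearest site to the annotated start was 2326 bases away. The 6 endothelial markers summed to normalized counts of 297 and 324 in KO against 266 and 254 in WT, and none of the 4 tested was called. Of those 4, 2 were higher in KO, so the markers did not move together. Flt1 held most of the sum, at 236 and 175 in KO against 146 and 146 in WT. Pecam1 was lower, at 15.9 and 6.99 in KO against 29.4 and 33.6 in WT.

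Dag1 encodes both dystroglycans, the receptor that spans the membrane between dystrophin and laminin. The gene, chr9:108204861-108263977 on the minus strand, had 15 sites with normalized counts of 257 and 184 in KO (220 ± 51.0) against 188 and 224 in WT (206 ± 25.7). The groups overlapped (log2 change 0.10, SE 0.49, DESeq2 adjusted p = 0.992). An intronic site at chr9:108247321-108247352 held 43.1% of its reads, with normalized counts of 136 and 42.3 in KO against 67.9 and 116 in WT, and the KO libraries lay on either side of WT. The site at chr9:108208360-108208444, contained in an exon, had 24, 16, 19 and 14 reads in KO replicates 1 and 2 and WT replicates 1 and 2.

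The sarcoglycans form a subcomplex in the membrane, and mutations of α-, β- or δ-sarcoglycan cause limb-girdle muscular dystrophy. Sgca and Sgcb, for α- and β-sarcoglycan, were at the edge of what this depth could show. Sgca, chr11:94962777-94976327 on the minus strand, had 4 sites and 42 and 26 reads in KO against 9 and 27 in WT (log2 change 0.06, SE 0.97, DESeq2 adjusted p = 0.994). Sgcb, chr5:73632749-73647737 on the minus strand, had 7 sites and 39 and 22 reads against 16 and 31 (log2 change -0.50, SE 0.90, adjusted p = 0.968 in DESeq2). In both genes the groups overlapped. Exonic sites held most of their reads, unlike the long genes, and the largest of each lay near the gene's downstream end, 12.96 kb from the Sgca start and 14.17 kb from the Sgcb start.

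In Sgcd, for δ-sarcoglycan, exonic and intronic reads lay in opposite directions. Summed over its 27 sites in chr11:46971077-47989451 (minus strand), normalized counts were 332 and 284 in KO (308 ± 34.1) against 513 and 237 in WT (375 ± 196), which overlapped (log2 change -0.28, SE 0.50, DESeq2 adjusted p = 0.968). Intronic sites held 71.7 and 57.8% of its reads in KO against 91.3 and 83.7% in WT, so the shares did not overlap. Shares did not overlap in 4 of the 8 genes, lower in KO for Sgcd and Sgcb and higher for Utrn and Sgca. These shares were not tested, and how many of all genes did the same was not counted. Sgca and Sgcb each had 1 intronic site and few reads. Their shares were 28.6 and 7.69% in KO against 0 and 0% in WT for Sgca, and 2.56 and 9.09% against 31.3 and 9.68% for Sgcb. Sums over exonic or intronic sites were fitted over all genes with size factors from that kind of site, so the values of the 2 sums do not add up to those of the gene. Exonic sites alone had 112 and 118 in KO against 46.2 and 31.4 in WT (log2 change 1.57, SE 0.64, unadjusted p = 0.0140, DESeq2 adjusted p = 0.360). Intronic sites alone had 202 and 164 in KO against 453 and 244 in WT (log2 change -0.93, SE 0.50, DESeq2 adjusted p = 0.549). The groups did not overlap in either sum, neither passed the adjusted test, and the difference between the exonic and intronic changes was not itself tested.

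The reads of Sgcd were held mostly by 3 sites. The intronic site chr11:47035715-47035727 held 51.7%, with 269 and 134 reads in KO against 226 and 108 in WT, and normalized counts of 177 and 116 against 307 and 125. The intronic site at chr11:47004070-47004083 fell in KO, with 7 and 9 reads in KO against 64 and 23 in WT (normalized 4.59 and 7.77 against 86.8 and 26.6, log2 change -3.21, SE 1.07, DESeq2 adjusted p = 0.0899). In edgeR its adjusted p was 0.181, and with any 1 library left out it was not called in DESeq2. The exonic site chr11:46977647-46977657 had 86 and 42 reads in KO against 14 and 8 in WT (log2 change 1.72, DESeq2 adjusted p = 0.680). Shares of reads over 3 testable sites did not pass the usage test (unadjusted p = 0.0263, adjusted p = 0.415, Simes method in diffSpliceDGE).

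**Figure D4:**
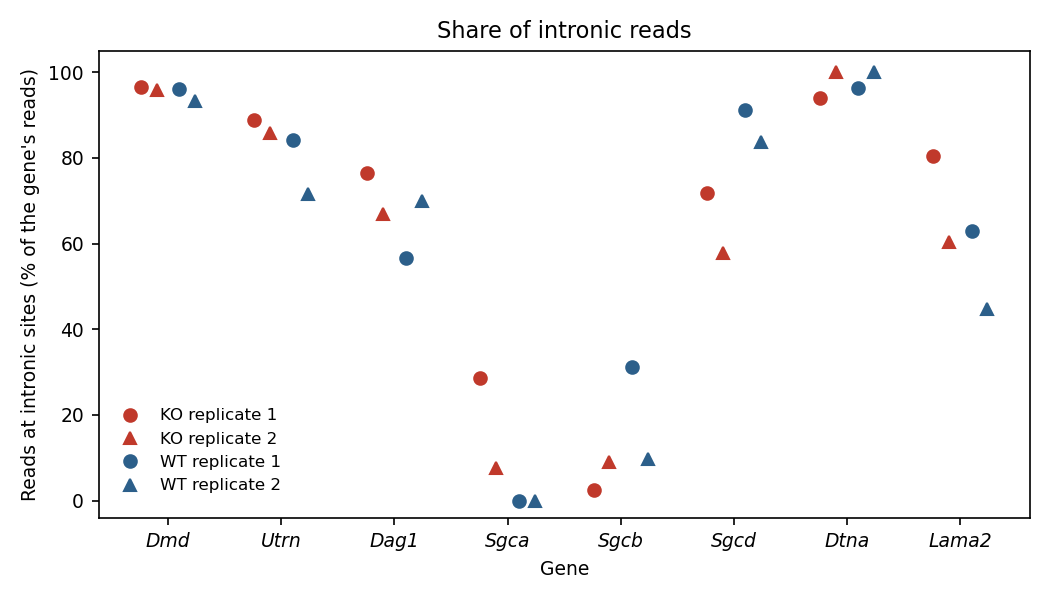
Percent of each gene's reads at intronic sites in each library, for the 8 genes, with KO and WT as separate points. Both KO libraries lie below both WT libraries for Sgcd and Sgcb and above them for Utrn and Sgca, Dmd is at 93.2% or more in all 4 libraries, and Sgca and Sgcb are at most 31.3%.

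Dtna encodes α-dystrobrevin, a dystrophin relative that binds dystrophin from the cytoplasmic side and takes part in maturing the neuromuscular junction. It had the smallest p of the 8 genes. Its 18 sites, in chr18:23310006-23659719 on the plus strand, had 252 and 151 reads in KO against 55 and 33 in WT, with 2 sites on the opposite strand. Normalized counts were 154 and 132 in KO (143 ± 15.5) against 77.1 and 41.1 in WT (59.1 ± 25.5), so both KO libraries were higher. The log2 change was 1.28 (SE 0.60, 95% interval 0.11 to 2.45, unadjusted p = 0.0322) and failed the adjustment over all genes (DESeq2 adjusted p = 0.432, edgeR adjusted p = 0.414). A single intronic site, chr18:23586779-23586786, held 48.5% of its reads, with 110 and 83 reads in KO against 41 and 4 in WT (log2 change 1.26, SE 1.03, DESeq2 adjusted p = 0.949). The other 17 sites summed to normalized counts of 86.7 and 59.4 in KO against 19.6 and 36.1 in WT, which did not overlap either. Of 4 marker genes of the nuclei under the neuromuscular junction, 3 were in the table, with summed normalized counts of 95.9 and 226 in KO against 70.1 and 146 in WT. These sums overlapped between the groups. Only 1 of the markers, Musk, was tested, and it was not called (log2 change 0.40, DESeq2 adjusted p = 0.955). The part of these markers in the Dtna difference was not tested.

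Lama2 encodes laminin α2, the basement membrane chain that dystroglycan binds around muscle fibres. Its promoter window, printed above with those of Dmd, held 1 CArG box that begins 39 bases before the start and 1 GC box 17 bases after it. The gene, chr10:26981285-27617191 on the minus strand, had 37 sites with normalized counts of 407 and 313 in KO (359.8 ± 66.4) against 344 and 349.98 in WT (347 ± 4.54), and the WT values lay within the KO range (log2 change 0.05, SE 0.44, DESeq2 adjusted p = 0.992). Reads were spread over the gene, with 12.7% at the largest site, chr10:27118547-27118723, which spans an exon and an intron and had 46 and 36 reads in KO against 35 and 80 in WT (log2 change -1.19, DESeq2 adjusted p = 0.849). The site nearest to the start was 658 bases downstream and had 8 and 7 reads in KO against 1 and 1 in WT. Lama2 is also made by fibroblasts, whose 8 markers summed to 2955 and 2784 in KO against 4008 and 3910 in WT. None of the 7 fibroblast markers tested was called, but all 7 were lower in KO, with a median log2 change of -0.49. Only Col3a1 had an unadjusted p under 0.05 (group means of 432 in KO and 779 in WT, DESeq2 unadjusted p = 0.0398). The part of these markers in the Lama2 value was not tested.

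**Figure D5:**
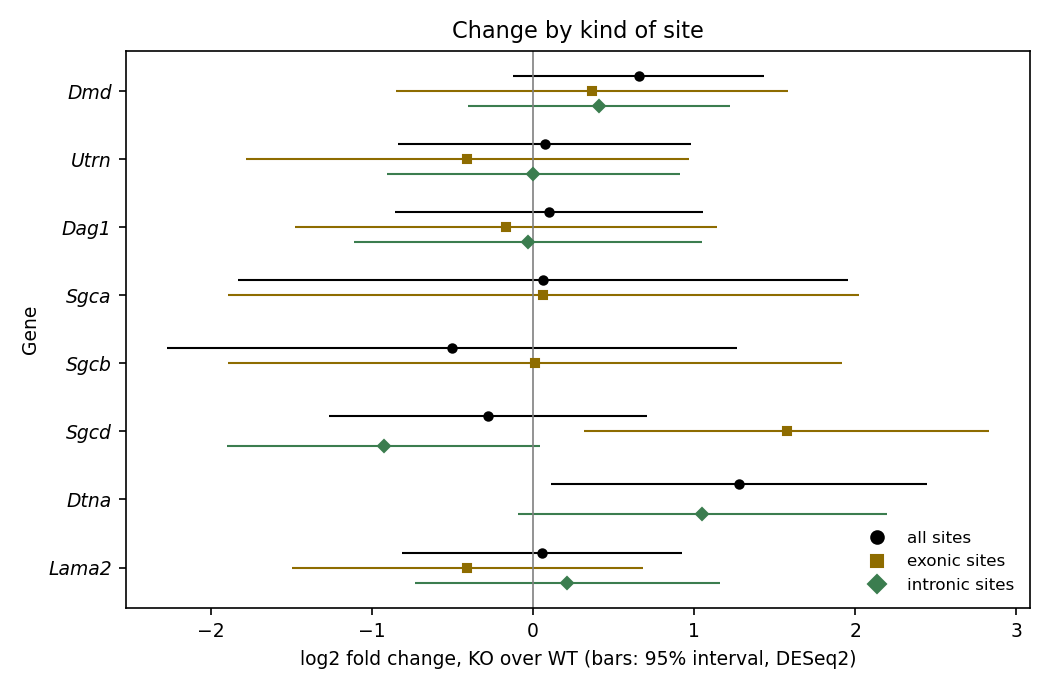
Log2 fold change of KO over WT with its 95% interval for each gene, over all its sites, its exonic sites and its intronic sites. The Sgcd exonic and intronic estimates lie on opposite sides of 0, the all-site estimates of Dmd and Dtna are the highest, each kind has size factors of its own, and sums without an adjusted p are not drawn.

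Levels per length of gene span ordered the 8 genes differently from their totals. Mean normalized counts per 100 kb were 361 for Dag1 (312 to 434 over the 4 libraries), 175 for Sgca (93.1 to 248), 174 for Sgcb (128 to 258) and 84.3 for Dmd (56.7 to 103). They were 63.3 for Utrn (49.3 to 74.2), 55.6 for Lama2 (49.2 to 64.0), 33.5 for Sgcd (23.2 to 50.4) and 28.9 for Dtna (11.8 to 44.0). Neighbours in this order overlapped between libraries except Dag1 and Sgca, and Sgcb and Dmd. The span includes introns, in which most reads of the long genes began.

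The 5′ ends of the 8 genes were mostly away from annotated starts, as were those of the table as a whole. Over all genes with a start, 4.62% of sites lay within 500 bases of one. These sites held 9.39% of the reads on primary chromosomes. RefSeq gave 9 starts for 7 of them and none for Dtna, and Dmd alone had a site within 500 bases, where 17.2% of all 6841 genes with a start did. Intronic sites were 81.8% of the sites of the complex and 52.0% of all sites assigned to genes. Of the 288 intronic sites of the complex, 197 were in Dmd. By gene the share was 94.4% for Dtna, 92.5% for Dmd, 74.2% for Utrn, 70.3% for Lama2 and 63.0% for Sgcd. It was under that of all genes for Dag1 (40%), Sgca (25%) and Sgcb (14.3%). Intronic sites had a median width of 7 bases in the 8 genes and 7 bases over the table, while exonic sites had medians of 17 and 28 bases.

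Among 12 other genes of the complex examined here, 9 were in the table and 5 were tested, and none of these 5 was called by DESeq2 or edgeR or had an unadjusted p under 0.05 in DESeq2. Sspn, for sarcospan, had normalized counts of 269 and 702 in KO against 296 and 452 in WT (log2 change 0.37, SE 0.54, DESeq2 adjusted p = 0.951), and the groups overlapped. Sgce, for ε-sarcoglycan, had a log2 change of -0.13 and Sntb2, for β2-syntrophin, 0.70. Higher values in KO were seen for 2 of these 5 genes, and their median log2 change was -0.04.

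Of the enzymes that glycosylate α-dystroglycan so that it can bind laminin, 8 of 21 listed symbols were in the table, 3 were tested and none was called by DESeq2 or edgeR. The list includes former names of some genes. Large, which extends the laminin-binding glycan, had normalized counts of 189 and 301 in KO against 353 and 97.1 in WT (log2 change 0.12). Ispd, which makes the precursor for this glycan, had 31.2 and 21.8 against 12.6 and 1.25 (log2 change 1.95, DESeq2 adjusted p = 0.705), and B3galnt2 had a log2 change of -1.20. None of the 3 had an unadjusted p under 0.05. Pomt2, which adds the first mannose with its partner and is named here after its values were seen, was removed by DESeq2's filter at 23 and 27 reads in KO against 0 and 0 in WT. Normalized counts were 14.05 and 23.6 in KO, at least 4.74-fold higher than a floor of 3 reads per WT library. Its unadjusted p was 0.00208 in DESeq2, edgeR gave an adjusted p of 0.141, and with TMM factors DESeq2 called it (adjusted p = 0.0998).

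Among 27 basement membrane and linker genes, 23 were in the table and 19 were tested, with none called in either direction by DESeq2 or edgeR and 7 higher in KO. The median log2 change was -0.32, and the lone gene with an unadjusted p under 0.05 was Col6a3, a collagen VI chain named here for that value (184 and 204 in KO, 328 and 499 in WT, log2 change -1.09, DESeq2 adjusted p = 0.320). The 3 with most reads were Des, for desmin, at 0.16, Col4a1, for a type IV collagen chain, at -0.46 and Ank3, for ankyrin G, at 0.64.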

How the data were processed

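WTSS-seq libraries were made by the authors from total RNA depleted of ribosomal RNA, by reverse transcription with template switching at the 5′ end, PCR and Ion Torrent sequencing, without selection for poly(A) RNA. No molecular identifiers were described, so PCR copies count as reads, and floors cover counting error only. Per the labels the genome build was GRCm38.p5. The mapping and clustering of ends into sites were described for the 3′-end libraries, and whether the same settings were used here was not given in the sources used here. The authors deposited 1 table of raw counts per site and library, with gene symbols and Cuffcompare class codes, and no other per-sample columns were left out. The labels gave the groups.

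Sites of a symbol were summed per gene. DESeq2 (1.42.0, R 4.3.3) compared KO with WT over all genes or sites, after the study's methods, with an adjusted p under 0.1, and edgeR (4.0.16) was the alternative. Independent filtering kept genes and sites above a mean normalized count of 16.5 and 8.76. How reads divide among the sites of 1 gene (usage) was tested with diffSpliceDGE. Library totals were 2900279 and 2303294 reads in KO and 1300069 and 1568945 in WT. With 2 against 2 libraries an exact permutation test cannot go below p = 0.333, so none was run for single values. Scripts were tested on simulated data. Gene positions and promoter sequences came from RefSeq tables of GRCm38.p6, and no genome sequence was used here. Class codes i, c, e, o and x stand for intronic, contained in an exon, exon and intron, other exonic overlap and antisense to an exon, and codes c, e, o and = were summed as exonic. Reads of overlapping or antisense genes may be assigned to either.

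The members and all gene and marker lists were chosen with earlier results of these data known. Text names all 8 members, the 3 sites of each gene with most reads where they carry a result, sites with an adjusted p under 0.1, the 10 sites with the smallest p among those under 0.05, sites within 500 bases of a start, and, of other lists, called genes or else the 3 with most reads. Alternatives were edgeR, TMM factors, scaling by library totals, no independent filtering, a threshold of 0.05, a replicate block, exonic or intronic sites only, primary chromosomes, no antisense sites and leaving out each library. Markers of smooth muscle, blood, Schwann cells and cardiac muscle were also examined. DESeq2 tested 3, 1, 0 and 0 of them, and none of those tested was called. Neither satellite cell marker, Pax7 or Myf5, was in the table. Of the other complex genes, 1 is not reported here, and the counts for that list leave it out.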

Additional observations from a re-analysis of the deposited data

How the results depend on the processing

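None of the 8 genes was called under any alternative that was run, in the tests of its summed count or of its site usage as a whole, while the usage test of single sites called 1 Dmd site. The removal of called sites from the Dmd bins was chosen after seeing the data. The 2 member sites called higher became 0 in edgeR, 1 without independent filtering, 1 at a threshold of 0.05, 1 with the replicate block, 0 in edgeR with that block, which was chosen after seeing the data, and 0 to 2 with a library left out. The 2 called lower became 0 in edgeR, 1 with TMM factors, 0 without filtering, 0 at a threshold of 0.05, 1 with the replicate block, 0 in edgeR with it, and 0 with any library left out. Deviations of same-numbered KO and WT libraries correlated at 0.07 over 10730 sites. With a single difference per group, this cannot show whether the shared numbers stand for a pairing. The main tests took the libraries as unpaired. Pomt2 gave a count of 1 among the glycosylation genes with TMM factors, at 23 and 27 reads in KO and 0 and 0 in WT. With exonic sites only, and size factors from such sites, the log2 fold change turned to -0.41 for Utrn, -0.17 for Dag1, 0.013 for Sgcb, 1.57 for Sgcd and -0.41 for Lama2, and with intronic sites only to -0.032 for Dag1. With a library left out it ran from 0.47 to 0.83 for Dmd, -0.22 to 0.40 for Utrn, -0.15 to 0.33 for Dag1, -0.47 to 0.91 for Sgca, -0.84 to -0.09 for Sgcb, -0.76 to 0.38 for Sgcd, 0.86 to 1.80 for Dtna and -0.14 to 0.24 for Lama2. The called Dmd sites kept their direction, at 2.60 to 3.94, -5.67 to -2.52 and 0.62 to 8.07 in order of p, as did the Sgcd site at -3.87 to -2.11. A left-out library leaves a group with 1 sample, assumed to vary like the other group. Library totals moved the median over all sites by -0.12 on the log2 scale. Genes such as Sgca and Sgcb, with under 50 reads a library, allow wide intervals only. The cause was not tested for any of these changes.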
